A study of Saccharomyces cerevisiae with 6 samples.

Results

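This section describes 60 genes of ribosome biogenesis and pre-rRNA processing in Saccharomyces cerevisiae, chosen by gene symbol from a list of nucleolar factors. All 60 were found among the 5925 genes that the deposited count tables hold, and all 60 passed the filter on low counts, with at least 38 counts in every library. 29 members act mainly on the small ribosomal subunit, 29 on the large subunit and 2 on both.

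Poly(A) RNA of 2 strains was compared, with 3 libraries per strain. BSGX001 is a xylose-utilizing strain derived from CEN.PK 113-5D. Its genotype is given as Ru-XI and XK, *gre3::PPP* and *cox4delta*, and it had been through adaptive evolution in xylose. BSGX001 (*thi2Δ*) shares all of these changes and is labelled as carrying, in addition, a deletion of *THI2*, the gene of an activator of thiamine biosynthesis genes. Both strains grew in YNB (yeast nitrogen base) medium on a mix of glucose and xylose, each at 20 g/L, at 30 °C and were sampled at 20 h of the co-fermentation of these sugars, labelled the GX stage. No label says that the 3 libraries of a strain came from separate cultures, so p-values measure the spread between these libraries, which may be technical. rRNA itself was not measured, since the libraries were enriched for poly(A) RNA.

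The libraries held between 7584920 and 12255688 counts, and no pair agreed within sampling noise. *THI2* stood at 22.7, 24.5 and 27.02 CPM (counts per 1000000 counts, scaled by TMM, edgeR's trimmed mean of M values) in BSGX001 and at 9.81, 10.9 and 13.9 CPM in the libraries labelled *thi2Δ*, which edgeR gave as -1.10 on the log2 scale (adjusted p = 6.32e-08). It was thus lower in all 3 libraries labelled *thi2Δ* but not at 0, so that *thi2Δ* is used here as the label of these libraries. The same 3 libraries also read higher over chromosome I, where the 85 genes tested had a median log2 fold change of 0.99, and over a part of chromosome XII that runs between *ECM22* and *GAS2*, where 107 genes had a median of 1.06. A difference that goes with the labelled deletion and a difference that goes with these regions cannot be told apart between the strains. No member lies on chromosome I, and 1 member, *DBP9*, lies in the chromosome XII stretch.

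Ribosome assembly starts in the nucleolus, where RNA polymerase I transcribes the precursor of the rRNAs. Small nucleolar ribonucleoproteins (snoRNPs) and large protein complexes (UTP-A, UTP-B and the U3 snoRNP among them) bind this precursor as it is made and form the small subunit processome. Other factors, among them RNA helicases, methyltransferases, GTPases and scaffold proteins, fold and cleave the part that becomes the large subunit. In yeast the genes of these factors form a large regulon that is expressed at a high level in fast growth and turned down in poor media and stress. Many of their promoters carry the PAC element, which Dot6 and Tod6 bind as repressors, and the RRPE element, which Stb3 binds.

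The promoter stretches of 9 members are shown here because these members were among those with the largest changes or fell. The first 5 are among the largest rises outside the chromosome XII stretch and the last 4 are all members that fell. Each run is 135 bases long, covers positions -215 to -81 before the start codon, is read 5′ to 3′ on the coding strand and was taken from the S288C reference genome R64. Capitals mark every match to the PAC core GATGAG or the RRPE core AAAATTT on either strand.
NSR1 (chrVII:807737-807871, reverse strand, rose): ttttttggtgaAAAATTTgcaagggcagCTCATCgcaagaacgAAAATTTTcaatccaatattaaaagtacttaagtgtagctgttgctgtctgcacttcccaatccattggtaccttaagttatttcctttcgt
HAS1 (chrXIII:851672-851806, reverse strand, rose): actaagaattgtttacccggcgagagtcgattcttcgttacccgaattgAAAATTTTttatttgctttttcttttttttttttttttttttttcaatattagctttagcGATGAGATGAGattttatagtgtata
UTP13 (chrXII:581852-581986, reverse strand, rose): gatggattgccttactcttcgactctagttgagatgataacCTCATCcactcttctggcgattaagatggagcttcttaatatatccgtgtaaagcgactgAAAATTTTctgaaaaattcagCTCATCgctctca
UTP9 (chrVIII:491716-491850, forward strand, rose): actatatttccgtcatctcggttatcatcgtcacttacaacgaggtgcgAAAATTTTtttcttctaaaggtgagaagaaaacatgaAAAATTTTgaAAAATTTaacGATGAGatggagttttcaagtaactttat
NOP56 (chrXII:545882-546016, forward strand, rose): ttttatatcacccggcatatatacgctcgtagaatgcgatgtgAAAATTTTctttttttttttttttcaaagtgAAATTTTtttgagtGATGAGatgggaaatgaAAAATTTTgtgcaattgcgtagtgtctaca
NOP53 (chrXVI:277610-277744, reverse strand, fell): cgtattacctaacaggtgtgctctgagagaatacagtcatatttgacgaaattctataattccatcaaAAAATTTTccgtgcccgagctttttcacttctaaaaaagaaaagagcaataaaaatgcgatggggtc
NOP16 (chrV:156588-156722, forward strand, fell): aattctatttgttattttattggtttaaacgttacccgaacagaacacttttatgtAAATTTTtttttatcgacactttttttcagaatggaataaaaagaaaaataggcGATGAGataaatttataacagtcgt
RRP5 (chrXIII:731204-731338, reverse strand, fell): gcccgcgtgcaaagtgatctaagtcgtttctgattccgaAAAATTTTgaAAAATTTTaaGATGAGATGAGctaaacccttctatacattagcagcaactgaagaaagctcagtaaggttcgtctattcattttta
UTP20 (chrII:227421-227555, forward strand, fell): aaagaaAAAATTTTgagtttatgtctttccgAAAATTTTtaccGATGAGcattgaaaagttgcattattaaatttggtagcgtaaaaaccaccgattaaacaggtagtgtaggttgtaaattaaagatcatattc

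All 5 rising members shown held both cores in this window. So did *NOP16*, *RRP5* and *UTP20*, which fell. *NOP53*, the member that fell most, had the RRPE core alone. In *RRP5* a pair of RRPE cores was followed directly by overlapping PAC cores.

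Over the 250 bases before the start codon, 53 of the 60 members (88.3%) held the PAC core, against 17% of all 6001 promoters of that length in R64. The longer PAC form GCGATGAG, which contains the core, was found in 31 members (51.7%) and in 3.83% of all promoters. The RRPE core was in 58 members (96.7%) and in 21.7% of all promoters, and 51 members (85%) held both cores, against 6.63%. No member lacked both, whereas 67.9% of all promoters did. The matches were searched on both strands. PAC cores lay at a median of -120 and RRPE cores at a median of -138 from the start codon. These matches describe the sequence and do not show that a factor was bound.

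**Figure D1:**
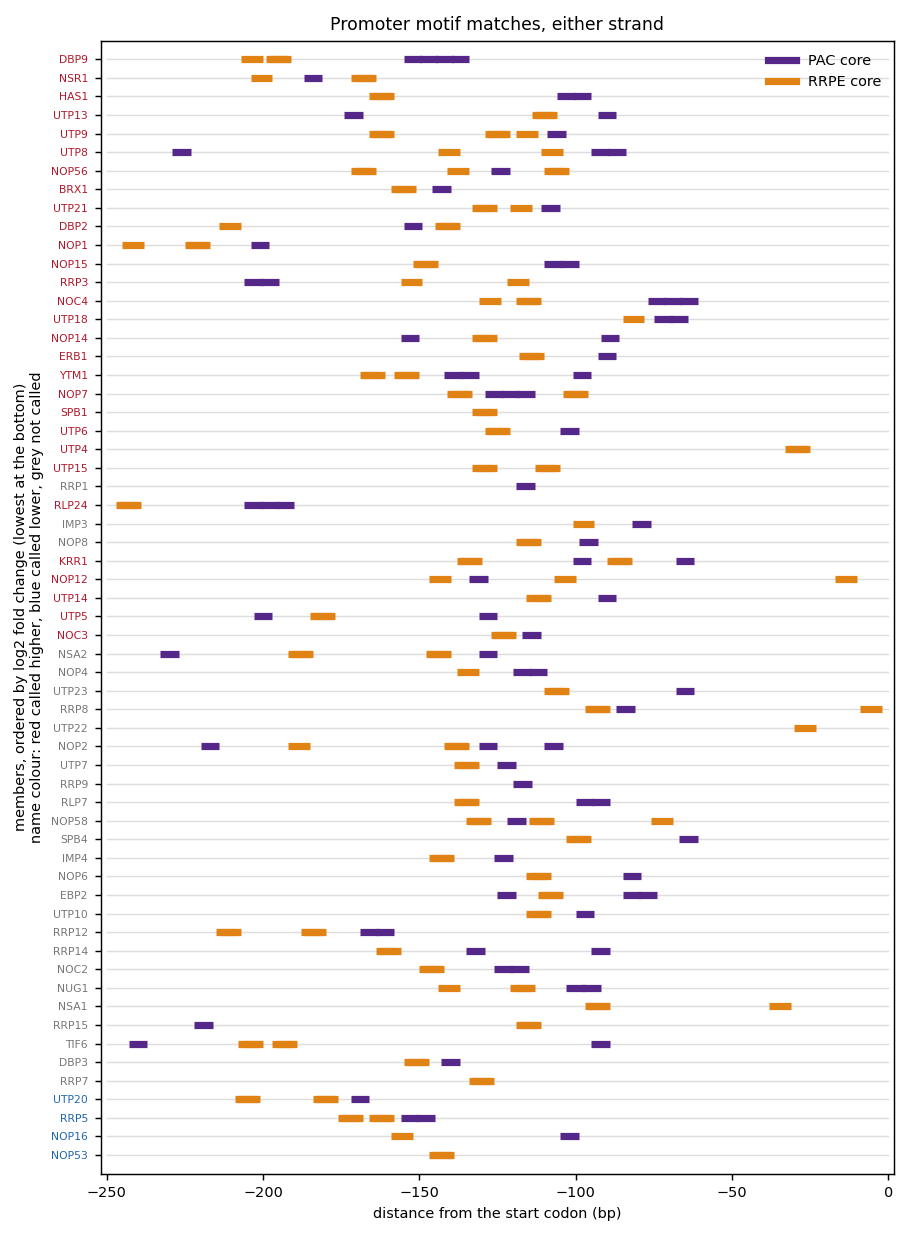
Positions of PAC core and RRPE core matches on either strand in the 250 bp before the start codon of each of the 60 members, ordered by log2 fold change with the largest rise at the top. Red names were called higher, blue lower and grey not called, and over all members PAC cores had a median position of -120 and RRPE cores of -138, while NOP53, the lowest row, has the RRPE core alone.

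The comparison of BSGX001 (*thi2Δ*) with BSGX001 asks which of these genes differ in transcript level between the 2 strains as labelled, in this stage. In edgeR's quasi-likelihood test at an adjusted p under 0.05, 29 of the 60 members (48.3%) were higher in the *thi2Δ* libraries, beside 26.1% of all 5774 genes tested. Only 4 members (6.67%) were lower, beside 25.2% of all genes, and 27 did not pass the test. The median log2 fold change of the members was 0.25, against 0.0093 over all genes. The changes were moderate. They ran from -0.59 for *NOP53* to 1.44 for *DBP9*, with standard errors between 0.068 and 0.207, and 2 members, *NSR1* and *DBP9*, rose at least 2-fold, beside 2.03% of all genes. In bulk RNA, less transcript in every cell and fewer cells with the transcript cannot be told apart.

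All 3 *thi2Δ* libraries lay above all 3 BSGX001 libraries in 29 members (48.3%), beside 29.1% of all genes, and below them in 5 members, beside 28.7% of all genes. These 29 are not the 29 members called. 26 members were in both groups, *YTM1*, *UTP14* and *RRP3* were called higher although their libraries overlapped, and *UTP22*, *RRP9* and *NOP2* lay above without passing the test. Of the 27 members not called, 16 had a positive and 11 a negative fold change, between -0.14 and 0.37. In the 29 factors of the small subunit, 17 rose (58.6%) and 1 fell (3.45%), with a median of 0.32. In the 29 factors of the large subunit, 11 rose (37.9%) and 2 fell (6.90%), with a median of 0.17. Of all genes tested 26.1% were called higher and 25.2% lower, which also stands beside the counts by role below. The difference between the subunits was not tested.

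**Figure D2:**
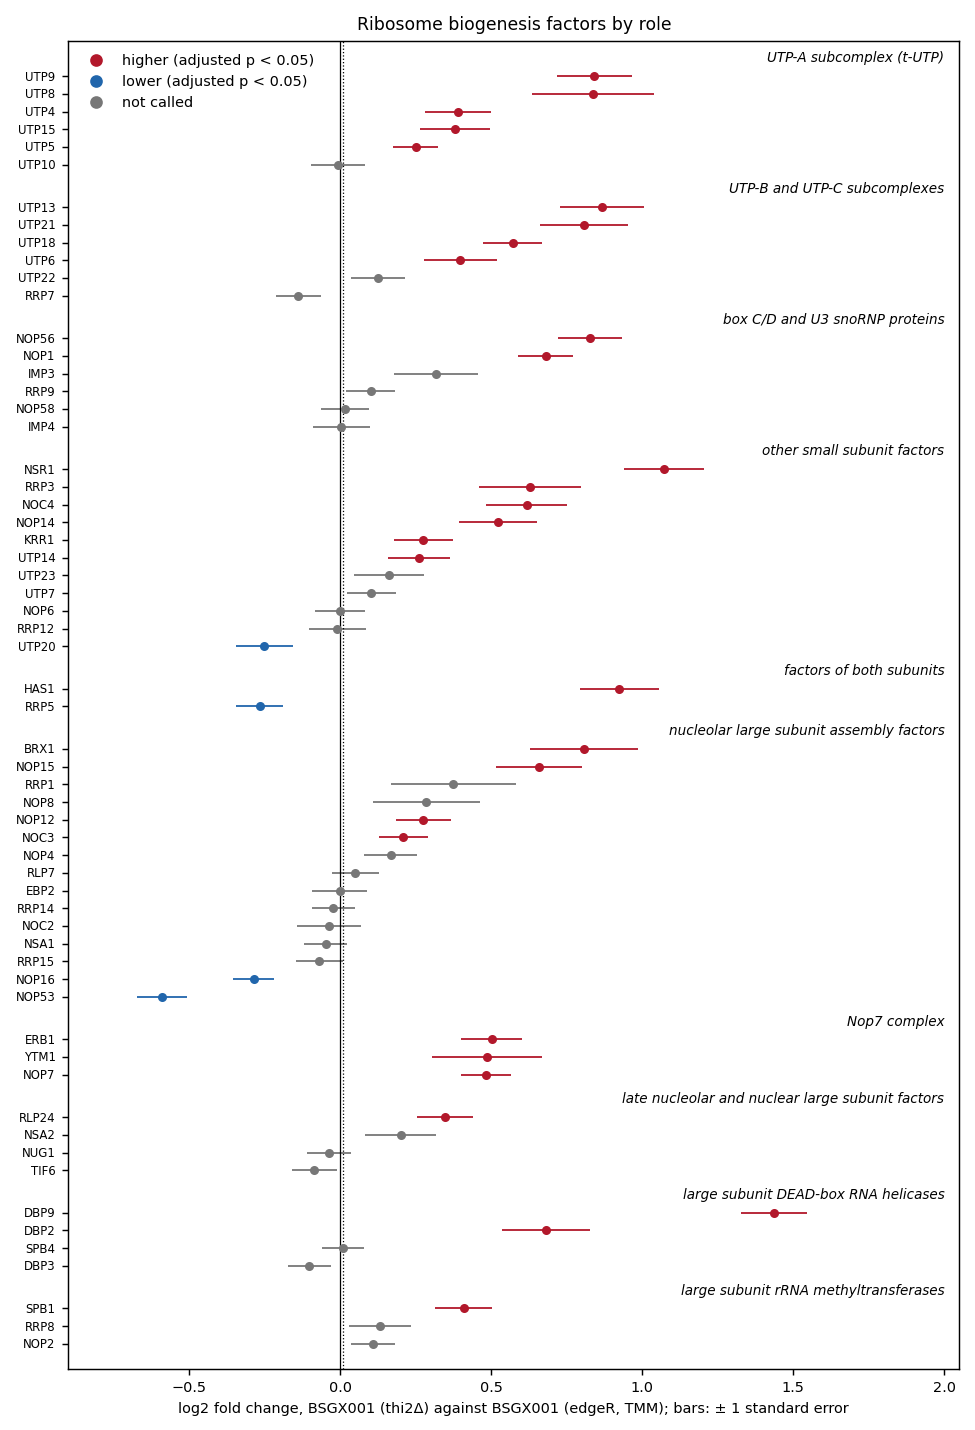
Log2 fold change of each of the 60 members, BSGX001 (thi2Δ) against BSGX001, grouped by role, with bars of 1 standard error from edgeR. The 29 members called higher are red, the 4 called lower blue and the 27 others grey, and the dotted line is the median of all genes tested (0.0093).

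The UTP-A subcomplex is the first to bind the 5′ external transcribed spacer of the pre-rRNA. Of the 6 members that belong to it 5 rose and none fell, with a median of 0.39. A further subunit gene, *NAN1*, which is on the list of other ribosome biogenesis genes, was measured too and did not pass the test (0.046 on the log2 scale). *UTP9* stood at 15.4, 13.1 and 12.6 CPM in the BSGX001 libraries and at 23.2, 26.02 and 25.1 CPM in the *thi2Δ* libraries. *UTP8*, the member of lowest level per coding length, had 4.85, 6.77 and 5.49 CPM in BSGX001 and 9.27, 8.11 and 13.02 CPM in *thi2Δ*. In both genes every *thi2Δ* library was above every BSGX001 library, and the log2 fold changes were 0.84 for *UTP9* (standard error 0.12, adjusted p = 1.33e-06) and 0.84 for *UTP8* (standard error 0.20, adjusted p = 0.000894). *UTP4*, *UTP15* and *UTP5* rose less, by 0.39, 0.38 and 0.25 on the log2 scale. *UTP10*, the large HEAT repeat protein of the complex, had 46.3, 46.3 and 48.1 CPM in BSGX001 and 49.5, 40.8 and 49.02 CPM in *thi2Δ*. These ranges overlapped, and the 95% interval of its log2 fold change was -0.18 to 0.17.

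UTP-B follows UTP-A onto the precursor, and UTP-C is a smaller complex of the same particle. All 4 UTP-B genes among the members rose, as did the further UTP-B genes *PWP2* (0.43) and *DIP2* (0.32) on the list of other ribosome biogenesis genes. *UTP13*, a protein of WD40 repeats, went from 11.9, 11 and 11.1 CPM in BSGX001 to 19.5, 18.2 and 24.6 CPM in *thi2Δ*, a log2 fold change of 0.87 with a standard error of 0.14 (adjusted p = 5.71e-06). *UTP21*, another WD40 protein, went from 10.97, 14.1 and 12.28 CPM to 23.4, 16.6 and 24.7 CPM, a log2 fold change of 0.81 with a standard error of 0.15 (adjusted p = 3.02e-05). In both genes the libraries of the strains did not overlap, although in *UTP21* the second *thi2Δ* library was close to the highest BSGX001 library. *UTP18* rose by 0.57 and *UTP6* by 0.40 on the log2 scale. The UTP-C members *RRP7* and *UTP22* did not pass the test. A further UTP-C gene on the other list, *RRP36*, rose by 0.53 on the log2 scale (adjusted p = 0.0191), although its libraries overlapped. *RRP7* stood at 88.04, 86.9 and 93.8 CPM in BSGX001 and 79.2, 85.1 and 79.99 CPM in *thi2Δ*, so that all *thi2Δ* libraries were below with a 95% interval of -0.28 to 0.0078, and *UTP22* stood at 35.95, 36.5 and 36.3 against 37.9, 39.6 and 41.3 CPM, with all *thi2Δ* libraries above and an interval of -0.05 to 0.30.

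The box C/D snoRNPs guide ribose methylation of rRNA, and the U3 snoRNP, which is built on the same core proteins, directs early cleavages. 2 of these 6 members rose (33.3%), beside 26.1% of all genes, and 4 did not pass the test. *SNU13*, a further core protein gene on the other list, did not pass the test (-0.12 on the log2 scale). *NOP56*, a scaffold of the box C/D particle, had 19.6, 24.1 and 21.4 CPM in BSGX001 and 36.6, 41.02 and 37.98 CPM in *thi2Δ* (log2 fold change 0.83, standard error 0.10, adjusted p = 9.22e-08). *NOP1*, the methyltransferase fibrillarin, had 64.5, 68.7 and 70.9 CPM in BSGX001 and 96.5, 101 and 129 CPM in *thi2Δ* (log2 fold change 0.68, standard error 0.090, adjusted p = 2.86e-07). Both rose without overlap of the libraries. *NOP58*, whose product pairs with that of *NOP56* in the particle, read 74.5, 76.5 and 67.04 CPM in BSGX001 and 70.5, 72.1 and 78.5 CPM in *thi2Δ*. The strains overlapped in *NOP58* and its 95% interval, -0.14 to 0.17, lay below the fold changes of its partners *NOP56* and *NOP1*. *IMP3* (0.32), *IMP4* (0.0032) and the U3 protein gene *RRP9* (0.10) did not pass the test either.

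Among the 11 other small subunit factors 6 rose and 1 fell. *NSR1*, the yeast homologue of nucleolin, had 39.5, 43.6 and 44.9 CPM in BSGX001 and 76.5, 79.9 and 113 CPM in *thi2Δ*. All *thi2Δ* libraries were far above BSGX001 and the third *thi2Δ* library was the highest, and the log2 fold change was 1.07 with a standard error of 0.13 (adjusted p = 1.56e-05). The DEAD-box helicase gene *RRP3* rose by 0.63 on the log2 scale, with 1 *thi2Δ* library inside the BSGX001 range. *NOC4* and *NOP14*, whose products bind each other, rose by 0.62 and 0.52. *KRR1*, a KH domain protein, and *UTP14*, an activator of a helicase of the processome, rose by 0.28 and 0.26.

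*UTP20*, a very large HEAT repeat protein, was called lower. It had 68.9, 69.4 and 65.3 CPM in BSGX001 and 66.8, 46.3 and 56.6 CPM in *thi2Δ*. The first *thi2Δ* library lay inside the range of BSGX001, so the strains overlapped, and the log2 fold change was -0.25 with a standard error of 0.095 (adjusted p = 0.0278). This call was lost when any of 4 libraries was left out, which were BSGX001 libraries 1 and 2 and *thi2Δ* libraries 2 and 3, with adjusted p up to 0.216. *UTP7*, *UTP23*, *RRP12* and *NOP6* did not pass the test, with log2 fold changes between -0.0093 and 0.16.

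The 2 factors that serve both subunits went in opposite directions. *HAS1*, a DEAD-box helicase, had 14.1, 14.02 and 14.9 CPM in BSGX001 and 23.6, 25.7 and 32.5 CPM in *thi2Δ* (log2 fold change 0.92, standard error 0.13, adjusted p = 5.36e-07). *RRP5*, an RNA-binding protein that joins the processing of both rRNA parts, had 102, 104 and 94.8 CPM in BSGX001 and 91.4, 77.7 and 80.3 CPM in *thi2Δ* (log2 fold change -0.27, standard error 0.078, adjusted p = 0.0051). The libraries did not overlap in either gene.

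**Figure D3:**
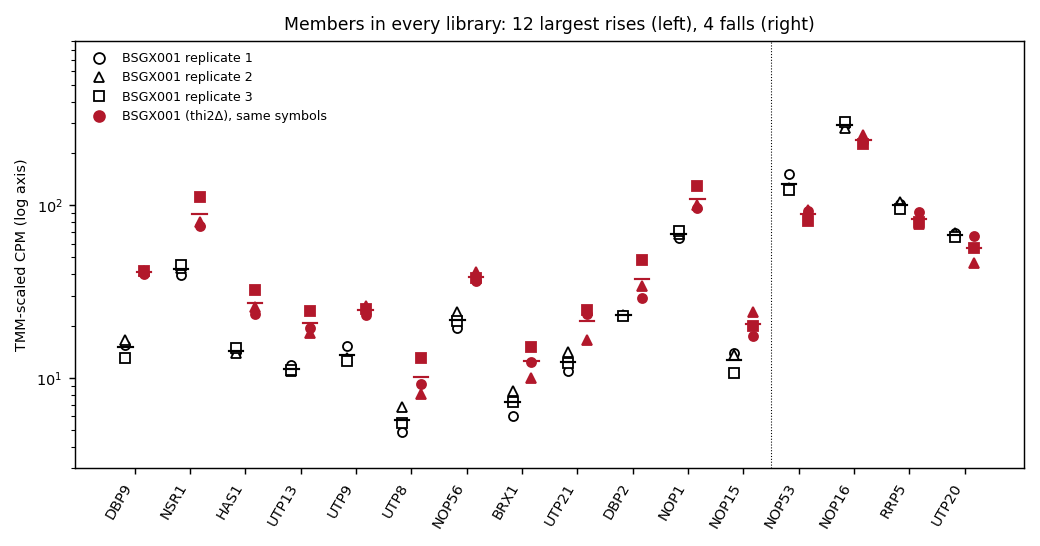
TMM-scaled CPM, on a log axis, of the 12 members with the largest rises and the 4 members called lower, in each of the 3 BSGX001 libraries (open symbols) and the 3 thi2Δ libraries (red symbols), with the mean of each strain as a bar. In the 12 rising members all thi2Δ symbols are above all BSGX001 symbols, as for NSR1 at 39.5, 43.6 and 44.9 against 76.5, 79.9 and 113, and among the 4 falling members the strains overlap in UTP20.

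The nucleolar assembly factors of the large subunit were the largest group, with 15 members, and had the lowest median of all groups, 0.05. 4 rose (26.7%), beside 26.1% of all genes, and 2 fell (13.3%), beside 25.2% of all genes. The other 9 did not pass the test. *BRX1*, an RNA-binding protein of the Brix family, had 6.01, 8.46 and 7.22 CPM in BSGX001 and 12.34, 10.04 and 15.2 CPM in *thi2Δ* (log2 fold change 0.81, standard error 0.18, adjusted p = 0.000395). Its level was low, but the libraries of the strains did not overlap. *NOP15*, an RNA recognition motif protein, rose by 0.66, *NOP12* by 0.28 and *NOC3*, a factor of pre-ribosome transport, by 0.21 on the log2 scale.

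*NOP53* and *NOP16* fell in this group. *NOP53*, which recruits the helicase of the nuclear exosome to the pre-ribosome, had 152, 127 and 123 CPM in BSGX001 and 93.1, 93.7 and 80.98 CPM in *thi2Δ* (log2 fold change -0.59, standard error 0.082, adjusted p = 5.17e-07). *NOP16* had 291, 281 and 304 CPM in BSGX001 and 233, 257 and 228 CPM in *thi2Δ* (log2 fold change -0.29, standard error 0.068, adjusted p = 0.000843). Both were lower in every *thi2Δ* library than in any BSGX001 library. The 9 members that did not pass were *NOP8*, *RRP1*, *NOP4*, *RLP7*, *EBP2*, *RRP14*, *NOC2*, *NSA1* and *RRP15*. Among them *RRP15* had 99.4, 89.2 and 88.4 CPM in BSGX001 and 84.8, 93.9 and 86.5 CPM in *thi2Δ* with a 95% interval of -0.22 to 0.081, and *NOP8* had 10.2, 7.86 and 7.08 CPM against 8.74, 10.6 and 11.9 CPM with an interval of -0.062 to 0.63. The strains overlapped in both, and *NOP8*, at its low level, had the wider interval.

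The Nop7 complex, which acts in the maturation of the large subunit rRNAs, is formed by the products of *NOP7*, *ERB1* and *YTM1*. All 3 genes rose, by nearly the same amount. *ERB1*, a WD40 protein, had 23.2, 22.6 and 23.4 CPM in BSGX001 and 32.7, 33.2 and 32.2 CPM in *thi2Δ* (log2 fold change 0.50, standard error 0.10, adjusted p = 0.000121). *NOP7* had 48.8, 45.3 and 47.8 CPM in BSGX001 and 68.5, 60.9 and 68.7 CPM in *thi2Δ*, a log2 fold change of 0.48 (standard error 0.083). *YTM1* had 6.75, 9.91 and 6.94 CPM in BSGX001 and 9.27, 10.9 and 13.1 CPM in *thi2Δ*, a log2 fold change of 0.49 (standard error 0.18). The libraries of *ERB1* and *NOP7* did not overlap, while those of *YTM1* did. The call of *YTM1* was lost without BSGX001 library 1 or 3 or without the third *thi2Δ* library, with adjusted p up to 0.17.

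Of the late nucleolar and nuclear factors of the large subunit, 1 of 4 members, *RLP24*, rose (25%), beside 26.1% of all genes. The other 3 did not pass the test. *RLP24* holds the place of a ribosomal protein until the particle reaches the cytoplasm. It had 30.9, 30.95 and 29.3 CPM in BSGX001 and 38.02, 38.6 and 39.6 CPM in *thi2Δ* (log2 fold change 0.35, standard error 0.093, adjusted p = 0.00245), and its libraries did not overlap. *TIF6*, which keeps the large subunit from joining the small subunit too early, had 126, 147 and 144 CPM in BSGX001 and 126, 134 and 132 CPM in *thi2Δ*. Its libraries overlapped, with a 95% interval of -0.23 to 0.059. The GTPase gene *NUG1* was at -0.037 and *NSA2* at 0.20 on the log2 scale.

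The DEAD-box helicases of the large subunit unwind RNA duplexes during assembly. *DBP9* showed the largest rise of all members, from 15.6, 16.7 and 13 CPM in BSGX001 to 40.1, 41.9 and 41.6 CPM in *thi2Δ* (log2 fold change 1.44, standard error 0.11, adjusted p = 2.46e-12). It is the member in the chromosome XII stretch whose genes had a median log2 fold change of 1.06, so its rise cannot be told apart from that of its neighbours. Without the genes of chromosome I and of this stretch, 28 of 59 members were called higher and 4 lower in the same fit, with a median of 0.25, while of all 5582 genes outside these regions, the 59 members among them, 1321 were higher and 1455 lower. *DBP2* had 23.3, 23.1 and 22.97 CPM in BSGX001 and 29.1, 34.4 and 48.3 CPM in *thi2Δ*, a log2 fold change of 0.68 (standard error 0.15). The 3 BSGX001 libraries were nearly equal in *DBP2* and the *thi2Δ* libraries spread widely above them. *DBP3* and *SPB4* did not pass the test, at -0.10 and 0.0086 on the log2 scale.

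Of the rRNA methyltransferases of the large subunit, *SPB1*, whose product methylates a ribose of the rRNA, rose, with 32.3, 36.9 and 30.1 CPM in BSGX001 and 44.8, 40.4 and 46.4 CPM in *thi2Δ* (log2 fold change 0.41, standard error 0.096, adjusted p = 0.000697). Its libraries did not overlap. *RRP8* and *NOP2*, whose products methylate bases, were at 0.13 and 0.11 on the log2 scale and did not pass the test.

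Levels were compared between genes as FPKM (counts per kilobase of coding length and per 1000000 counts of the library). The mean over the 6 libraries ran from 3.79 FPKM for *UTP8* to 380 FPKM for *NOP16*, a 100-fold range, with a median of 26.1 FPKM. *NOP16*, *TIF6* (183 FPKM) and *RRP15* (120.2 FPKM) had the highest levels, and *UTP8*, *UTP21* (6.16 FPKM) and *NOP8* (6.55 FPKM) the lowest. Of the 59 pairs of neighbours in this order, 57 had overlapping ranges over the 6 libraries. These ranges hold both strains, and so also the difference between them, and the order within a library was not compared. The 2 exceptions were *TIF6* above *RRP15* and *NOP16* above *TIF6*. Members of 1 complex were not at 1 level, since in UTP-A the mean was 3.79 FPKM for *UTP8* and 81.3 FPKM for *UTP5*, and in the box C/D core it was 20.3 FPKM for *NOP56*, 47.8 FPKM for *NOP58* and 91.8 FPKM for *NOP1*.

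More members of low level than of high level were called higher. Among the 20 members of lowest level (3.79 to 14.1 FPKM) 13 were called higher and 1 lower, with a median log2 fold change of 0.49. The 20 in the middle (15.4 to 33.0 FPKM) had 12 higher and 1 lower, with a median of 0.30. Of the 20 highest (37.2 to 380 FPKM) only 4 rose and 2 fell, with a median of 0.0017, and these 4 were *NSR1*, *NOP1*, *RLP24* and *UTP5*. All genes tested showed a like order over the same 3 ranges of level, with medians of 0.23, 0.13 and -0.038, with 33.1%, 32.6% and 24% called higher and with 6.07%, 12.4% and 29.8% called lower. Across genes, Spearman's rho of log2 fold change against mean FPKM was -0.52 over the 60 members and -0.32 over all genes tested. Genes are not independent replicates, and the fold change and the mean share the same 6 libraries. The part of level in the members' changes was not tested.

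**Figure D4:**
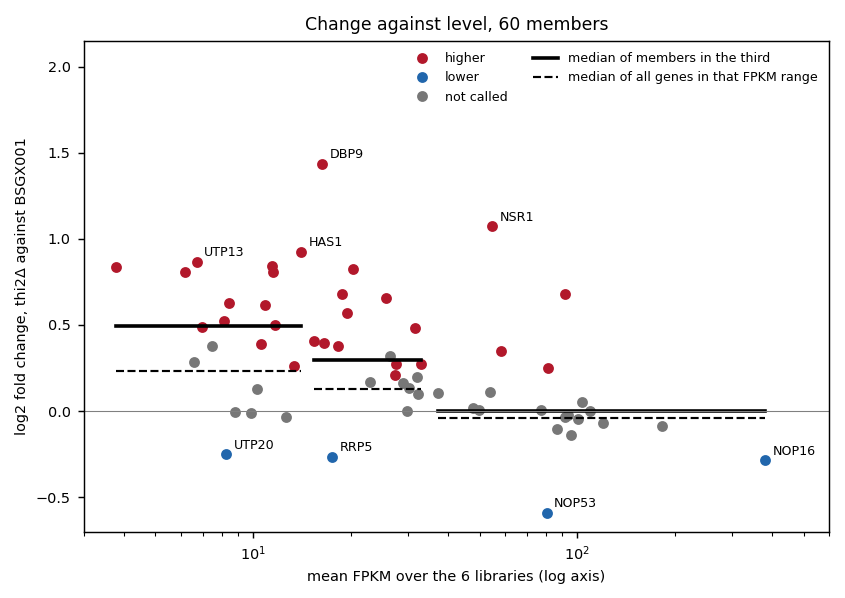
Log2 fold change (edgeR, TMM) against the mean FPKM over the 6 libraries, on a log axis, for the 60 members. The medians of the 20 lowest, 20 middle and 20 highest members (solid lines, 0.49, 0.30 and 0.0017) lay above those of all genes in the same FPKM ranges (dashed lines, 0.23, 0.13 and -0.038).

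The promoter elements were set beside the changes. Of the 53 members with the PAC core 26 rose (49.1%) and 3 fell (median 0.26), and of the 7 without it 3 rose (42.9%) and 1 fell (median 0.13). Only 2 members lacked the RRPE core, and neither passed the test. Of the 31 members with the long PAC form 17 rose and 1 fell (median 0.29), and of the 29 without it 12 rose and 3 fell (median 0.13). A longer RRPE form, the core preceded directly by TGA, was added after the data had been seen and was in 30 members and in 3.87% of all promoters. Of the 30 members with it 19 rose (63.3%) and 1 fell (median 0.40), and of the 30 without it 10 rose (33.3%) and 3 fell (median 0.11). Over all genes tested, 41.1% with this form and 25.5% without it were higher, and 14.3% and 25.7% lower. Outside the ribosome biogenesis lists these shares were 36.25% and 25.3% higher, and 16.9% and 26.0% lower. Members with this form also had a lower median level (19.6 FPKM) than those without (28.3 FPKM). Outside the ribosome biogenesis lists, 262 genes held both cores, of which 32.1% were called higher and 20.6% lower, with a median of 0.098, while of the 5347 without both cores 25.3% were higher and 26.0% lower, with a median of 0.0013. None of these differences was tested, and the part of level in them was not tested.

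Of 97 other ribosome biogenesis genes, 37 rose (38.1%) and 10 fell (10.3%), with a median of 0.16, beside 26.1% and 25.2% of all genes. The largest rises were *MAK16* (1.89, on chromosome I), *ALB1* (1.11), *ESF1* (0.98), *ESF2* (0.77) and *NIP7* (0.64). The largest falls were *MDN1* (-0.43), the giant AAA ATPase of the large subunit, the GTPase gene *BMS1* (-0.34), *KRI1* (-0.32), *NOP19* (-0.30) and *SAS10* (-0.29). The PAC core was in 88.7% and the RRPE core in 90.7% of these 97 promoters, close to the shares among the 60 members.

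RNA polymerase I makes the rRNA precursor on which the members work. Of 8 genes of this polymerase and its initiation factor 6 rose (75%) and none fell, with a median of 0.30, beside 26.1% and 25.2% of all genes. *RPA12* had 4.43, 4.96 and 3.61 CPM in BSGX001 and 8.20, 9.32 and 9.47 CPM in *thi2Δ*, a log2 fold change of 1.03 (standard error 0.20), with no overlap of the libraries. *RPA43*, *RPA49*, *RPA190*, *RPA34* and *RPA135* rose by 0.78, 0.58, 0.31, 0.29 and 0.26 on the log2 scale. *RPA14* (0.14) and the initiation factor gene *RRN3* (0.17) did not pass the test. Of 137 cytosolic ribosomal protein genes 53 rose (38.7%) and 15 fell (10.9%), with a median of 0.10.

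Genes of regulators of this regulon were read as well. *TOD6*, a repressor that binds PAC, had 108, 112 and 109 CPM in BSGX001 and 150.0, 142 and 161 CPM in *thi2Δ* and rose (log2 fold change 0.46, standard error 0.072, adjusted p = 3.19e-06). Its paralogue *DOT6* had 375, 352 and 388 CPM in BSGX001 and 344, 313 and 335 CPM in *thi2Δ* and fell (log2 fold change -0.17, standard error 0.068, adjusted p = 0.0383). In neither gene did the libraries overlap. *STB3* (-0.16), which binds RRPE, the kinase gene *SCH9* (-0.13) and the activator gene *SFP1* (0.19) did not pass the test. The transcript level of a regulator does not show its activity.

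The counts of members that rose and fell depended on the scaling. The 50 most abundant genes took between 25.5% and 26.6% of all counts in BSGX001 and between 21.2% and 21.7% in *thi2Δ*, and the TMM factors were 0.912 to 0.942 and 1.06 to 1.09. When the libraries were scaled by their totals alone, the median of all genes shifted by 0.22 on the log2 scale, 51.9% of all genes were higher and 10.3% lower, and 49 members were higher and 1 lower. The member that still fell was *NOP53* (-0.38), while *RRP5* (-0.052), *NOP16* (-0.069) and *UTP20* (-0.038) no longer passed the test. The falls of these 3 genes therefore hold relative to the other genes and not relative to all counts. As shares of all counts, the 60 members together took 0.306%, 0.305% and 0.291% in BSGX001 and 0.364%, 0.377% and 0.387% in *thi2Δ*, higher in each *thi2Δ* library. The part of the abundant genes in the result was not tested.

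**Figure D5:**
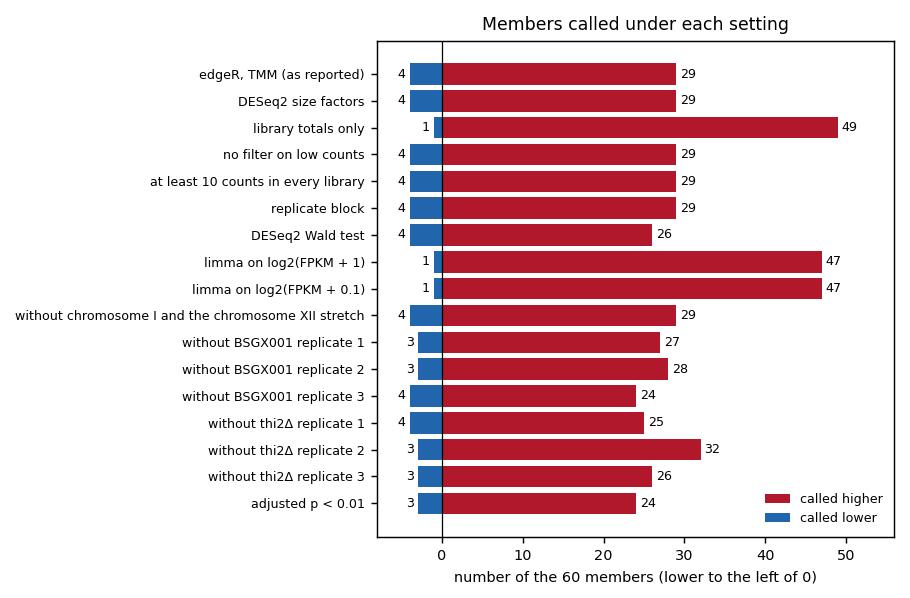
Number of members called higher (red, right of 0) and lower (blue, left of 0) under each setting of the analysis. The counts were 29 and 4 with edgeR and TMM, 49 and 1 when scaled by library totals, 47 and 1 in limma (log2 of FPKM + 1), and between 24 and 32 higher and 3 and 4 lower with 1 library left out. The setting without the 2 regions holds 59 members. Of all genes, 26.1% were higher and 25.2% lower with TMM, and 51.9% and 10.3% with library totals. These shares were not counted for limma or for the fits with 1 library left out.

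The median of the members was higher in each *thi2Δ* library. It lay 0.22, 0.19 and 0.25 above the BSGX001 mean on the log2 scale in the 3 *thi2Δ* libraries, while the 3 BSGX001 libraries lay between -0.029 and 0.024. In the 29 members called higher, which the call had already chosen for this direction, these medians were 0.50, 0.41 and 0.68. The third *thi2Δ* library was the highest of its strain in 17 of these 29 members (58.6%) and in 37.6% of all genes called higher. *NSR1*, *DBP2*, *HAS1* and *NOP1* are examples, as their values above show. Leaving out that library gave 26 members higher and 3 lower. The shares of all genes called with 1 library left out were not counted, so these counts cannot be set against all genes. In all 6 fits with 1 library left out, 22 of the 29 rises and 3 of the 4 falls passed the test. The 7 rises that did not were *YTM1*, *UTP5*, *UTP15*, *NOC3*, *NOP12*, *UTP14* and *KRR1*.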

How the data were processed

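Poly(A) RNA of 3 BSGX001 and 3 BSGX001 (*thi2Δ*) libraries was sequenced on an Illumina platform. The authors deposited, per library and gene, whole-number expected counts and FPKM values, which fit the coding length and the total count of each library. The submitters' processing notes name DESeq and the build R64, and the aligner and counter are not given in the sources used here. Of 5925 genes, 5923 matched R64 by ID. The deposited tables of the authors' own comparison (log2 fold changes, p-values and q-values) and 12 further per-sample columns, which repeat the same values, were not used. Whether reads were counted by strand is not given in the sources used here, and no member overlaps another gene model of R64, the smallest gap to a neighbour being 42 bp.

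The expected counts, all whole as deposited, were fitted in edgeR 4.0.16 (R 4.3.3) with TMM scaling, the default filter on low counts and the robust quasi-likelihood test, without a replicate block. p-values were adjusted by Benjamini-Hochberg over all 5774 genes tested, and a gene was called at an adjusted p under 0.05. Standard errors were computed from the fold change and the F statistic, and 95% intervals as 1.96 standard errors to each side. On simulated counts for 5771 genes with 200 changed 2-fold, edgeR called all 200 changed and 9 unchanged genes. The changed genes were well counted, rose and fell in equal number, and the simulated strains did not differ in scaling. This recovery does not cover changes under 2-fold, which most of those given here are. DESeq2 1.42.0 and limma 3.58.1 on log2(FPKM + 1) or log2(FPKM + 0.1) of the deposited values were alternatives, with the settings named in the closing section. The labels give the same replicate numbers in both strains, but deviations of same-numbered libraries did not go together, so the numbers were not taken as pairs. The common biological coefficient of variation was 0.0628.

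The members and lists were chosen with earlier results of these data known. Values per library are given for the largest called rise and fall in each role (where no member was called, that of lowest p), for the 3 highest and 3 lowest members by FPKM and, beyond this rule, for members chosen after their values had been seen. All genes of the polymerase I and regulator lists are named, and 5 rises and 5 falls of the other biogenesis genes. To these *NAN1*, *PWP2*, *DIP2*, *RRP36* and *SNU13* were added, as subunits of the members' complexes, after values had been seen. Promoters were the 250 bases before the start codon in R64. Longer RRPE matches were searched after the data had been seen. 1 promoter sequence is not reported here.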

Additional observations from a re-analysis of the deposited data

How the results depend on the processing

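With library totals in place of TMM, members higher rose from 29 to 49 and members lower fell from 4 to 1, beside 51.9% and 10.3% of all genes. Limma gave 47 higher and 1 lower with either pseudocount (1 or 0.1). The shares of all genes called by limma were not counted, so its counts cannot be set against all genes. The member median of 0.25 became 0.47 with library totals, 0.46 with limma on log2(FPKM + 1) and 0.48 with limma on log2(FPKM + 0.1). FPKM is taken per total count of the library, so limma on FPKM also scaled by library totals and is not a separate scaling. In these 3 settings the median of all genes shifted by 0.22. The other ribosome biogenesis genes called higher were 37, but 65 with library totals, 62 with limma in both forms and 24 at an adjusted p under 0.01, and those called lower were 10, but 1 with library totals and 0 with limma in both forms. The DESeq2 Wald test called 26 members higher and 4 lower, without *YTM1*, *NOC3* and *UTP14*, beside 22.7% of all genes higher and 24.5% lower. At an adjusted p under 0.01, 24 members were higher and 3 lower, beside 18.6% and 19.6% of all genes. DESeq2 size factors, no filter and a minimum of 10 counts in every library each gave 29 and 4. The fit without chromosome I and the chromosome XII stretch gave 29 and 4 of 59 members, since *IMP3* passed in it. The replicate block gave 29 and 4 with a median of 0.26 and changed no member's call. The correlations of deviations between same-numbered libraries, 0.083, -0.068 and -0.054, give no pairing.

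With each library left out in turn, members higher ranged from 24 to 32, members lower from 3 to 4 and the member median from 0.21 to 0.27. The other ribosome biogenesis genes ranged from 26 to 37 higher and from 8 to 9 lower. The shares of all genes called in these fits were not counted. The rise of *NOC3* and the fall of *UTP20* were each lost in 4 of these fits.

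Changes of sign were seen only in members that were not called with TMM. With library totals, limma with a pseudocount of 1 and limma with 0.1, in this order, the log2 fold changes were positive for *UTP10* at 0.21, 0.18 and 0.19, *RRP7* at 0.0778, 0.0782 and 0.0789, *DBP3* at 0.11, 0.11 and 0.12, *TIF6* at 0.13, 0.13 and 0.13, *NUG1* at 0.18, 0.18 and 0.18, *RRP15* at 0.15, 0.15 and 0.15, *NSA1* at 0.17, 0.17 and 0.17, *NOC2* at 0.18, 0.16 and 0.17, *RRP14* at 0.19, 0.19 and 0.20, *EBP2* at 0.21, 0.20 and 0.21 and *RRP12* at 0.21, 0.18 and 0.20. With DESeq2 size factors and the DESeq2 Wald test, *IMP4* was at -0.00235 and -0.000321 and *NOP6* at -0.00514 and -0.00395. *EBP2* was at 0.000142 with no filter. Without the 2 regions, *UTP10* was at 0.00837, *EBP2* at 0.0135 and *RRP12* at 0.00521. With 1 library left out, the values crossed 0 for *UTP10* from -0.0564 to 0.0724, *IMP4* from -0.10 to 0.0843, *NOP58* from -0.0348 to 0.0505, *SPB4* from -0.0150 to 0.0356, *NUG1* from -0.10 to 0.0135, *NSA1* from -0.0810 to 0.0151, *NOC2* from -0.12 to 0.0386, *RRP14* from -0.0432 to 0.00383, *EBP2* from -0.0398 to 0.0487, *RRP12* from -0.0661 to 0.0422 and *NOP6* from -0.0589 to 0.0769. The cause was not tested.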
